A study of Mus musculus with 32 samples.

Results

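The genes described here are 10 cytosolic chaperone genes that are known targets of heat shock factor 1 (HSF1), followed over liver RNA of MCAD-KO and WT mice: Hspa8, Hspa1a, Hspa1b, Hsph1, Hspa4l, Dnajb1, Hsp90aa1, Hsp90ab1, Hspb1 and Hspb8. They were chosen by name, and all 10 were among the 20076 genes of the count table. The mice were male, on a C57BL/6J background, and carried either a knockout of Acadm (KO), which encodes medium-chain acyl-CoA dehydrogenase of mitochondrial fat oxidation, or were WT littermates. They were 2 to 4 months old, and the labels list ages from 7.5 to 16 without a unit. They received a low-fat (LF) or high-fat (HF) semi-synthetic diet for 6 weeks and then stayed on it (fed) or were fasted for 16 h (fasted), which gives 8 groups of 4 mice: WT LF fed, WT LF fasted, WT HF fed, WT HF fasted, KO LF fed, KO LF fasted, KO HF fed and KO HF fasted. All mice, fed and fasted alike, had been under brief isoflurane anaesthesia when they were killed.

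HSF1 is held inactive in unstressed cells and, when unfolded proteins accumulate, binds inverted repeats of a GAA unit upstream of chaperone genes and raises their transcription. The HSP70 proteins encoded by Hspa8 (constitutive) and by Hspa1a and Hspa1b (inducible) hold and refold unfolded chains, J-domain proteins such as DNAJB1 bring them their clients, and the HSP110 relatives HSPH1 and HSPA4L exchange their nucleotide. HSP90 proteins finish the folding of receptors and kinases, and the small heat shock proteins HSPB1 and HSPB8 keep unfolded chains from clumping. In liver these chaperones also keep the glucocorticoid receptor able to bind its hormone, and their expression follows feeding rhythms and body temperature.

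Promoters were read from the RefSeq table (build GRCm38.p6), which was matched by symbol and held 7 of the 10 genes. Hspa8, Hsp90aa1 and Hsp90ab1 had no match in it. The 250 bases before each start site were searched for the inverted repeats GAANNTTC and TTCNNGAA, each of which is its own reverse complement, so that both strands were covered. At least 1 of them was found for 4 of the 7 genes, where 12.8% of all 32851 promoters of the table held at least 1. This share counts promoters and not genes, and Hsph1 and Dnajb1 had more than 1 window. In a longer form of the repeats, another unit follows after the same gap. None of the 7 genes held the longer form in these windows, and 0.466% of all promoters did. Hspb1, Hspa1a, Hspa1b and Hsph1 held a match, and Hspa4l, Hspb8 and Dnajb1 held none in this window. The window of Hspa4l (chr3:40745363-40745612) and 1 window of Dnajb1 (chr8:83608298-83608547) lay inside the gene of the GENCODE annotation. The bases before the GENCODE start of Hspa4l were therefore not searched. The sequences with a match are shown, since they are what sets these 4 promoters apart from most of the table. They are written 5′ to 3′ on the strand of the gene, with the repeats in capitals. For Hspb1 (chr5:135887799-135887918, plus strand), Hspa1b (chr17:34959239-34959358, minus strand) and Hspa1a (chr17:34972157-34972276, minus strand) the 120 bases before the start site are given, and for Hsph1 (chr5:149636351-149636380, minus strand) only 30 bases around the site, which lies inside the transcript of the GENCODE annotation.
Hspb1: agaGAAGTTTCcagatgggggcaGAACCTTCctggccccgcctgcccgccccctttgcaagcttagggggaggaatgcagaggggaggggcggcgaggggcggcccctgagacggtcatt
Hspa1b: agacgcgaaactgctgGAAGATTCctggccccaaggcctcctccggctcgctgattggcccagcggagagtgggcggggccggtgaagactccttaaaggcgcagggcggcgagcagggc
Hspa1a: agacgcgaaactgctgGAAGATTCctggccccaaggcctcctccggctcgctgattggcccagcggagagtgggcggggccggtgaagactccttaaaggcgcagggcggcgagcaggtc
Hsph1: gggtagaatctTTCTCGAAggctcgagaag

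Hspb1 carried 2 copies of GAANNTTC, which begin 117 and 97 bases before the start site. Hspa1a and Hspa1b carried 1 copy each, 104 bases before the start, in promoters that differed at 3 of 250 bases. The copy of TTCNNGAA at Hsph1 began 33 or 54 bases before the start, depending on which of its 2 RefSeq starts is taken. A match is a match of letters only, and binding was not measured.

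Liver RNA was read at the 3′ end of transcripts with reads of 50 bases, and between 2031053 and 4292200 counts per mouse fell into genes. In the knockout mice Acadm had 26 to 94 counts and in the WT mice 566 to 2752, so every library carried the genotype of its label. Of the 32 mice, 2 were left out of all results unless named. KO HF fasted replicate 4 had 31696.0 CPM (counts relative to the library total after TMM scaling, as all levels here) of 12 heart genes and 834.8 CPM of 10 hepatocyte genes, where the hepatocyte genes summed to at least 41501.9 CPM in each of the 30 other mice used. WT LF fed replicate 2 had 33185.6 CPM of the hepatocyte genes and 1315.5 CPM of stellate cell and fibroblast genes, which reached at most 646.6 CPM in the mice used. Groups therefore held 4 mice each, except KO HF fasted and WT LF fed with 3. Among the mice used, genes of the acinar pancreas summed to 17513 CPM in WT HF fasted replicate 2 and 2580 CPM in KO HF fed replicate 1 (median 2.76 CPM), and skeletal muscle genes to 1605 CPM in KO HF fed replicate 1, 901 CPM in WT HF fed replicate 4 and 349 CPM in WT HF fasted replicate 4 (median 1.32 CPM). In bulk RNA, fewer cells of a type and less RNA per cell cannot be told apart.

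Of the 10 genes, 9 passed the filter on low counts and were tested, and Hspa1a did not. The tests asked whether fasting, diet or genotype shifted each gene, in 1 edgeR quasi-likelihood model of the 8 groups over 11566 genes, with p adjusted over all of them (Benjamini-Hochberg) and called below 0.05. Averaged over the 4 pairs of fed and fasted groups, fasting was called for 1 of the 9 genes, Hspa8, which was higher after the fast. For comparison, 18.9% of all genes tested were called in this contrast and 9.77% were called higher. Their median log2 fold change was 0.14, with 8 of 9 above 0, beside 0.00 for all genes tested.

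**Figure D1:**
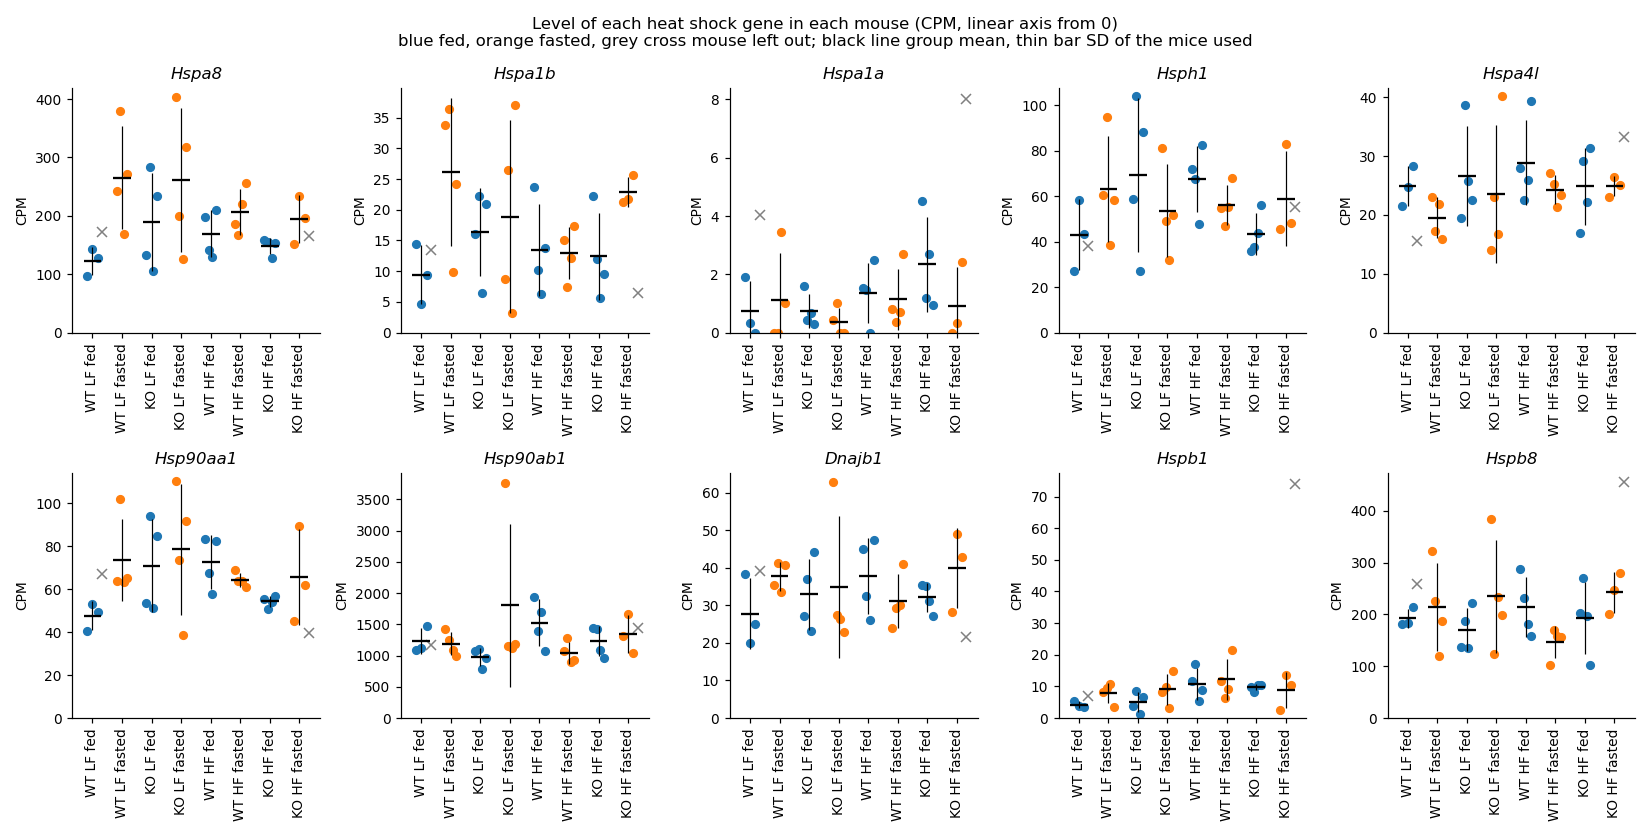
Level of each of the 10 heat shock genes in CPM (linear axis from 0) in each mouse of the 8 groups, blue for fed and orange for fasted, with the group mean as a black line, the SD as a thin bar and the 2 mice left out as grey crosses. Hspa8 in WT LF fasted mice lies between 168.6 and 379.9 CPM, above all 3 WT LF fed mice used, and KO LF fasted replicate 1 stands alone at 3757.9 CPM in the Hsp90ab1 panel.

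Hspa8 (chr9:40800984-40810087, plus strand, GRCm38) encodes HSC70, the HSP70 that cells make at all times, and had 240 to 1073 counts per mouse. Over all fed mice its level ran from 97.3 to 284.2 CPM with a median of 143.4 CPM (n = 15), and over all fasted mice from 126.3 to 404.1 CPM with a median of 221.0 CPM (n = 15). The 2 ranges overlapped widely. The average difference was a log2 fold change of 0.56 (SE 0.16, adjusted p = 0.0114 by edgeR), or 1.48-fold. Some summed marker lists also had different medians in fed and fasted mice, with overlapping ranges. The Kupffer cell and macrophage genes summed to a median of 513.2 CPM (range 421.1 to 579.7) in fed and 382.8 CPM (295.5 to 776.8) in fasted mice. For the adipose genes these were 28.5 CPM (16.9 to 130.6) and 94.3 CPM (25.3 to 312.5). For the hepatocyte genes they were 47610.9 CPM (41501.9 to 57413.0) and 54497.2 CPM (41873.3 to 68929.8). Whether these sums follow the number of cells or the level of the genes within cells was not tested, nor was their part in the result.

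In WT LF mice Hspa8 stood at 97.3, 143.4 and 127.7 CPM when fed and at 242.4, 379.9, 168.6 and 271.0 CPM when fasted. Each fasted mouse was above each fed mouse, and 20.1% of all genes tested were likewise without overlap in these 7 mice. The means were 122.8 ± 23.4 CPM (SD, n = 3) and 265.5 ± 87.6 CPM (SD, n = 4), a log2 fold change of 1.11 (SE 0.34, adjusted p = 0.0412 by edgeR). Hspa8 was the single heat shock gene called in WT LF mice, where 7.54% of all genes tested were called. The fed mouse left out of this group, replicate 2, had 173.0 CPM, above the lowest fasted mouse. With only this mouse added back to the model, Hspa8 was still called (0.97, adjusted p = 0.0393 by edgeR). With all 32 mice, KO HF fasted replicate 4 included, the adjusted p of Hspa8 was 0.0796 by edgeR. Leaving out 1 mouse at a time took the adjusted p above the threshold for 7 of the 30 mice, by edgeR, with a largest value of 0.178 without WT LF fed replicate 1.

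In KO LF mice Hspa8 was at 133.6, 284.2, 105.2 and 234.2 CPM when fed and at 404.1, 199.9, 126.3 and 317.2 CPM when fasted. The groups overlapped, since fasted replicate 3 lay below 3 of the fed mice, and the log2 fold change of 0.47 (SE 0.30) was not called (adjusted p = 0.361 by edgeR). In WT HF mice the fed values were 197.4, 141.3, 130.1 and 210.3 CPM and the fasted values 185.3, 167.1, 221.0 and 255.5 CPM. In KO HF mice the fed values were 158.8, 155.0, 128.5 and 153.1 CPM and the fasted values 152.0, 234.3 and 196.3 CPM. Both HF pairs overlapped, with log2 fold changes of 0.29 (SE 0.30) in WT and 0.38 (SE 0.33) in KO, neither of them called.

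The fasting difference of Hspa8 was thus above 0 in all 4 pairs of groups, and the difference between the pairs was not shown: the fasting by diet interaction was −0.45 (SE 0.32, adjusted p = 0.616 by edgeR) and the fasting by genotype interaction −0.28 (SE 0.32, adjusted p = 0.987 by edgeR). Ordered by mean level, the 8 groups ran from WT LF fasted and KO LF fasted over WT HF fasted, KO HF fasted, KO LF fed, WT HF fed and KO HF fed to WT LF fed, with all 4 fasted groups above all 4 fed groups, and each group overlapped with the next. Libraries were sequenced on lanes 7 and 8, and all WT LF fed mice were on lane 8. The lanes are those of the labels, which put 16 libraries on each, where the study's methods describe pools of 8. Fits within single lanes used feeding, diet and genotype as added terms, so their feeding value is not the average over the 4 pairs. Lane 7 held no WT LF fed mouse, and the WT LF pair could not be formed there. The feeding value of Hspa8 was 0.28 within lane 7 (adjusted p = 0.592 by edgeR, 16 mice). Within lane 8 it was 0.69 (adjusted p = 0.0556 by edgeR, 14 mice). With lane as a term in the model of 8 groups, the average over the 4 pairs was 0.57 (adjusted p = 0.0152 by edgeR). Reads of Hspa8 are also open to loss: of the 50-base words in the last 300 bases of its transcript, 67.3% also occurred in transcripts of other genes, among them Gm15459, Gm5575 and Gm8337, so that reads from these places could not be assigned to 1 gene.

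**Figure D2:**
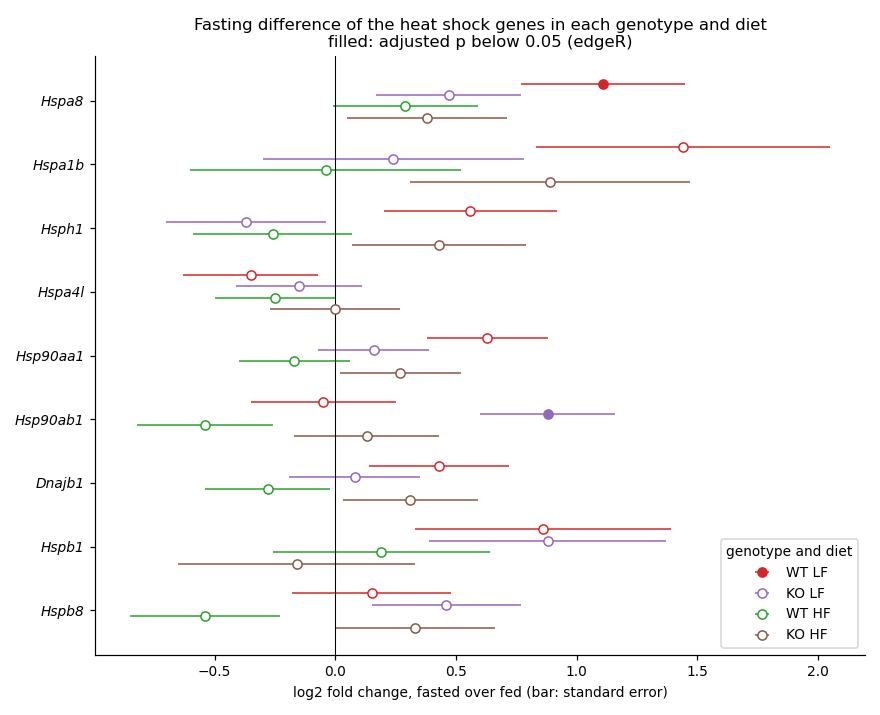
Log2 fold change of fasted over fed mice (x axis) of the 9 heat shock genes tested, with its standard error, in the 4 combinations of genotype and diet, where filled points have an adjusted p below 0.05 by edgeR. Only Hspa8 in WT LF mice (1.11) and Hsp90ab1 in KO LF mice (0.88) are filled.

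The inducible HSP70 genes are neighbours on chromosome 17. Hspa1b (chr17:34956436-34959238, minus strand) had 6 to 103 counts per mouse and varied more than Hspa8, from 3.16 to 37.1 CPM, an 11.7-fold range. In WT LF mice it was at 14.4, 4.68 and 9.33 CPM when fed and at 33.8, 36.4, 9.89 and 24.2 CPM when fasted. Fasted replicates 1, 2 and 4 were above all fed mice and replicate 3 was not, and the log2 fold change of 1.44 (SE 0.61) was not called (adjusted p = 0.175 by edgeR).

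In KO LF fasted mice Hspa1b was spread over its whole range, with 8.80, 26.5, 3.16 and 37.1 CPM, around fed values of 16.0, 22.3, 6.51 and 20.9 CPM. The KO HF fasted mice were close together at 21.2, 21.7 and 25.7 CPM, with the KO HF fed mice at 22.2, 12.0, 5.69 and 9.59 CPM. Averaged over the 4 pairs, the fasting difference of Hspa1b was 0.63 (SE 0.29, adjusted p = 0.135 by edgeR). The median was 12.0 CPM over 15 fed mice and 21.2 CPM over 15 fasted mice, and the ranges of 4.68 to 23.7 CPM and 3.16 to 37.1 CPM overlapped. Without KO LF fasted replicate 3, the mouse with the lowest level, the adjusted p was 0.0458 with a log2 fold change of 0.72.

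Hspa1a (chr17:34969190-34972156, minus strand) was hardly detected in these livers. It had 0 counts in 7 of the 30 mice and at most 3 counts in 18, and no mouse had more than 13 counts or 4.52 CPM. A count of 0 allows up to 3 counts, which is 0.697 to 1.58 CPM over the scaled totals of these libraries, so differences below that level could not be read at this depth. DESeq2 gave all 10 genes an adjusted p in the average contrasts of fasting, diet and genotype, and it did not call Hspa1a. The last 300 bases of the Hspa1a and Hspa1b transcripts had no 50-base word in common with each other or with another gene, so that their 3′ reads could be told apart although the whole transcripts were 85.5% identical.

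Hsph1, Hspa4l and Dnajb1 encode partners of HSP70, and none of them was called for fasting on average. Hsph1 (chr5:149614287-149636376, minus strand), an HSP110, ranged from 27.1 CPM in KO LF fed replicate 3 to 103.9 CPM in KO LF fed replicate 2, that is, its lowest and highest mice belonged to the same group. Its average fasting difference was 0.09 (SE 0.17, adjusted p = 0.783 by edgeR), with 0.56 in WT LF mice and −0.37 in KO LF mice. In KO LF mice it was at 58.8, 103.9, 27.1 and 88.4 CPM when fed and at 81.4, 49.3, 32.1 and 51.9 CPM when fasted, and the fasted range lay inside the fed range. Hspa4l (chr3:40744495-40796103, plus strand), another HSP110, lay between 14.1 and 40.2 CPM and was the only one of the 9 genes with an average fasting difference below 0 (−0.19, SE 0.13, adjusted p = 0.377 by edgeR). Its highest fasted mouse, KO LF fasted replicate 4, and its lowest, replicate 1, were again of 1 group.

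Dnajb1 (chr8:83608193-83612653, plus strand), the J-domain partner of HSP70, had 20.1 to 62.9 CPM. In KO LF fasted mice it was at 62.9, 27.5, 26.3 and 23.0 CPM, so that replicate 1 had more than any other of the 30 mice, while the other 3 were all below the highest fed mice, whose range was 23.3 to 44.3 CPM. Its average fasting difference was 0.14 (SE 0.14, adjusted p = 0.568 by edgeR).

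Hsp90ab1 (chr17:45567775-45573271, minus strand), the constitutive cytosolic HSP90, had 2121 to 8537 counts per mouse. It was the single heat shock gene called for fasting in KO LF mice, where 13.8% of all genes tested were called. The fed mice were at 1073.9, 1098.2, 783.4 and 964.4 CPM and the fasted mice at 3757.9, 1151.2, 1116.0 and 1185.9 CPM. The groups did not overlap, as was the case for 13.7% of all genes tested, but fasted replicate 1 alone had more than the 3 other fasted mice together, and these lay next to the highest fed mouse. The log2 fold change was 0.88 (SE 0.28, adjusted p = 0.0364 by edgeR) with that mouse and 0.23 (adjusted p = 0.492 by edgeR) without it.

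In the other pairs of groups Hsp90ab1 was not called for fasting. WT LF mice had 1231.3 ± 214.0 CPM fed (SD, n = 3) and 1188.9 ± 184.4 CPM fasted (SD, n = 4). WT HF mice had 1935.9, 1395.2, 1696.9 and 1070.6 CPM when fed and 1075.5, 1286.0, 898.8 and 921.7 CPM when fasted, so 3 of the 4 fed mice were above all fasted mice (log2 fold change −0.54, SE 0.28, adjusted p = 0.594 by edgeR). The fasting by genotype interaction of Hsp90ab1 was 0.80 (SE 0.29, adjusted p = 0.942 by edgeR) and the fasting by diet interaction −0.62 (SE 0.29, adjusted p = 0.360 by edgeR), so neither was called.

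Hsp90aa1 (chr12:110690605-110702728, minus strand), the stress-inducible HSP90, had 38.9 to 110.5 CPM. In WT LF mice it was at 40.3, 53.2 and 49.5 CPM when fed and at 63.9, 102.1, 63.2 and 65.2 CPM when fasted. The groups did not overlap, as for 20.1% of all genes tested, and 3 of the 4 fasted mice were close together below replicate 2. The fed mouse left out had 67.2 CPM, above those 3 fasted mice. The log2 fold change of 0.63 (SE 0.25) was not called in the model of 8 groups (adjusted p = 0.139 by edgeR), and with these 2 groups alone in the model the adjusted p was 0.0431. In KO LF mice Hsp90aa1 was at 53.4, 94.2, 51.4 and 84.9 CPM when fed and at 110.5, 73.7, 38.9 and 91.7 CPM when fasted, with complete overlap of the fed range by the fasted range.

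The small heat shock genes were not called for fasting. Hspb1 (chr5:135887919-135889563, plus strand), which encodes HSP25, was low in liver, at 4 to 56 counts and 1.37 to 21.5 CPM, with average fasting difference 0.44 (SE 0.24, adjusted p = 0.233 by edgeR). Of the 50-base words in the last 300 bases of its transcript, 18.3% also occurred in Hsp25-ps1. In KO LF mice Hspb1 was at 3.83, 8.41, 1.37 and 6.56 CPM when fed and at 8.36, 9.76, 3.16 and 14.8 CPM when fasted, with overlapping groups (log2 fold change 0.88, SE 0.49, adjusted p = 0.265 by edgeR). Hspb8 (chr5:116408491-116422864, minus strand), which works with BAG3 in the removal of unfolded proteins, had 102.7 to 383.8 CPM and an average difference of 0.10 (SE 0.16, adjusted p = 0.747 by edgeR). The differences of Hspb8 had both signs: in WT HF mice it was at 287.4, 232.2, 181.5 and 157.8 CPM when fed and at 102.7, 169.7, 158.8 and 156.7 CPM when fasted (log2 fold change −0.54, adjusted p = 0.643 by edgeR). In KO LF mice it was at 137.4, 187.5, 135.6 and 222.3 CPM when fed and at 383.8, 124.6, 234.2 and 198.2 CPM when fasted (0.46, adjusted p = 0.380 by edgeR). Both pairs of groups overlapped, and KO LF fasted replicate 1 was again the highest.

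With the 8 groups ordered by mean level, each of the 9 genes tested had overlapping mice in all neighbouring groups, with 1 exception. For Hsp90aa1 the WT HF fasted mice, at 61.1 to 68.9 CPM, lay above the KO HF fed mice, which came next at 50.6 to 56.9 CPM.

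Within the HF diet no heat shock gene was called for fasting, 0 of 9 in KO and 0 of 9 in WT mice by edgeR, with 0 of 9 at an unadjusted p below 0.05 in both (7.53% of all genes tested in KO HF and 9.19% in WT HF) and 0 by DESeq2, which gave no adjusted p for 1 gene in each. Of all genes tested, 0.527% were called in KO HF and 0.424% in WT HF mice, so that calls were rare there for any gene. The log2 fold change was above 0 for 7 of 9 genes in KO HF mice (median 0.31), with Hspa4l at 0.00 and Hspb1 at −0.16, and for 2 of 9 in WT HF mice (median −0.25). The corresponding medians were 0.24 in KO LF and 0.56 in WT LF mice, where 7 of 9 were above 0 in each, and the median of all genes tested was between 0.00 and 0.01 in all 4.

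**Figure D3:**
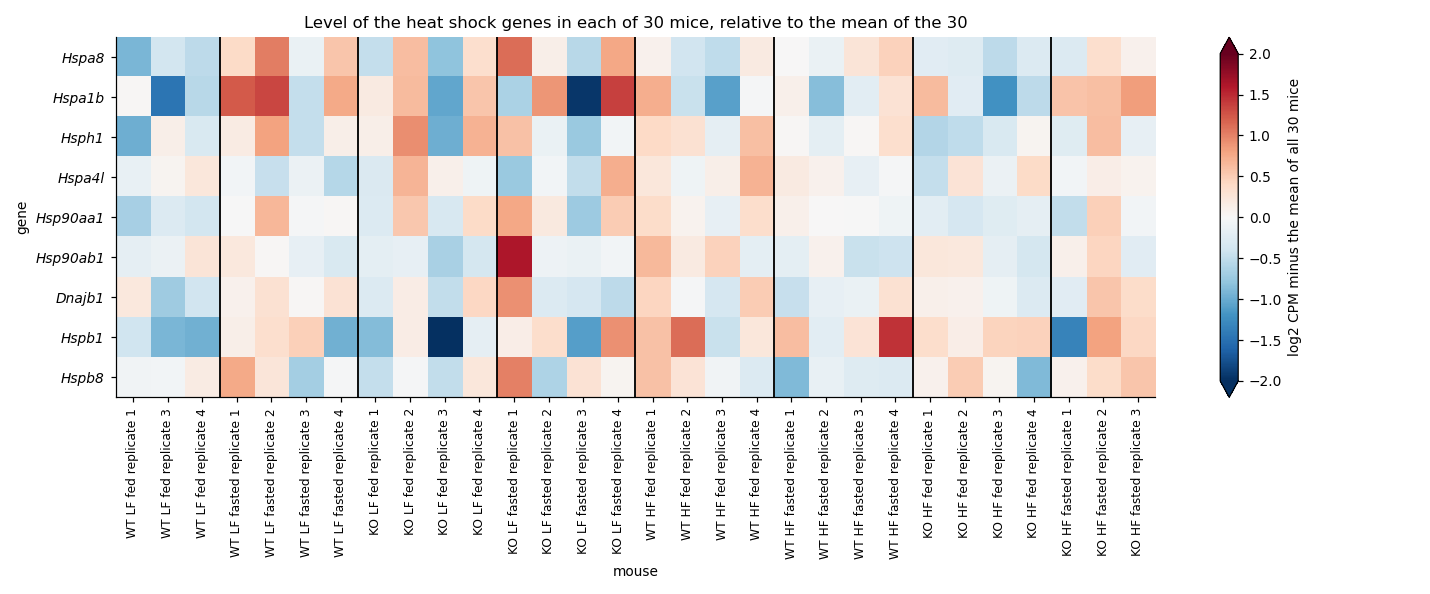
Log2 CPM of the 9 heat shock genes tested (rows) in each of the 30 mice (columns, by group) minus the mean of all 30 mice of that gene, red for above and blue for below. Most rows are red in KO LF fasted replicate 1, except Hspa1b and Hspa4l, and most are blue in KO LF fed replicate 3, and mice of the same group differ from each other.

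Several of the heat shock genes, foremost Hspa8, Hsp90aa1 and Hsph1, varied together from mouse to mouse within the groups. On log2 CPM as deviations from the group mean, Hspa8 and Hsp90aa1 had a Pearson r of 0.889 over the 30 mice (Spearman rho 0.852, and r = 0.849 without the 2 mice farthest from the median of Hspa8). Hsph1 and Hspa8 had r = 0.872 (rho 0.849) and Hsph1 and Hsp90aa1 r = 0.812 (rho 0.835). Of the 36 pairs among the 9 genes, 33 were above 0 and 12 above 0.5, with a median of 0.399 and a range from −0.315 to 0.889. Over all pairs of the 11566 genes tested, 49.8% were above 0 and 2.18% above 0.5, with a median of −0.001. These are descriptions, since the points share libraries and scaling factors and several of the genes were chosen as targets of the same factor.

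Hspa8, Hsp90aa1 and Hsph1 followed the mean of the other heat shock genes most closely (r = 0.900, 0.850 and 0.754), and Hspa1b, Dnajb1 and Hspb1 less so (0.501, 0.567 and 0.607). Hsp90ab1 and Hspb8 had 0.366 and 0.367 with that mean and 0.604 with each other, which fell to 0.466 without the 2 mice farthest from the median of Hsp90ab1. Hspa4l did not follow the others (r = 0.0631).

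**Figure D4:**
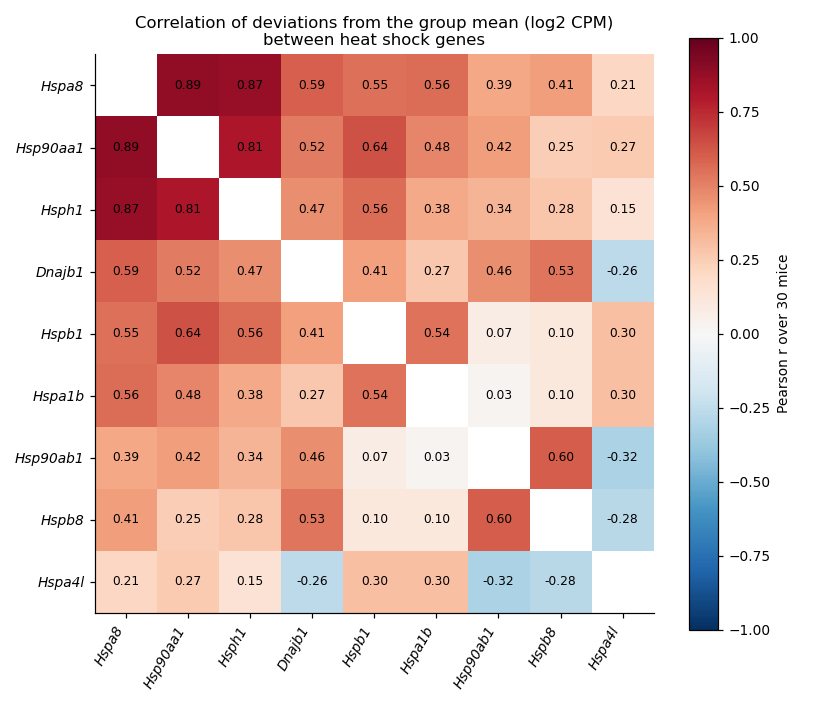
Pearson r over 30 mice between heat shock genes, computed on deviations of log2 CPM from the group mean, with the value printed in each cell and red for positive values. Hspa8, Hsp90aa1 and Hsph1 form the block of values from 0.81 to 0.89, and the row of Hspa4l runs from −0.32 to 0.30.

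Single mice stood out for several of the genes at once. KO LF fasted replicate 1 was the highest of all 30 mice for 5 of the 9 genes, Hspa8, Hsp90aa1, Hsp90ab1, Dnajb1 and Hspb8, and the lowest for Hspa4l, while its Hspa1b was at 8.80 CPM, below the median. KO LF fed replicate 2 was the highest of its group for 7 of 9 genes and KO HF fasted replicate 2 likewise. KO LF fed replicate 3 was the lowest of its group for 8 of 9 genes, KO HF fasted replicate 1 for 8 of 9 and KO LF fasted replicate 3 for 6 of 9. KO LF fasted replicate 1 also had the most CPM of the erythroid list (1284.9 CPM, median of all mice 660.9 CPM) and of the endothelial list (479.8 CPM, median 344.5 CPM), and KO LF fasted replicate 3 had the most of the adrenal cortex list (172.1 CPM, median 0.621 CPM). The part of other cells in the levels of these mice was not tested. How often the same mice were highest or lowest over all genes tested was not counted. Several of the 9 genes varied together, so these counts are not independent of each other.

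The genes most like the mean standardized level of the 9 heat shock genes were found by Pearson r among all genes tested. Over the 30 mice these were Gm12346 (0.748), ENSMUSG00000099859 (0.745), Hspd1 (0.699), Yap1 (0.685), Dnaja1 (0.670) and Gm10300 (0.666). On deviations from the group means they were Gm12346 (0.778), ENSMUSG00000099859 (0.772), Chordc1 (0.766), Stip1 (0.714), Dtx3l (0.704) and Ccs (0.700). Gm12346 is uncertain as a gene of its own, since 75.4% of its 50-base words also occur in Hsp90aa1. ENSMUSG00000099859 had 0 words to search, so whether it shares sequence with the heat shock genes was not checked. Without the 2 mice with the most extreme mean, the 12 values lay between 0.526 and 0.764, with Chordc1 at 0.764.

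Diet was called for none of the 9 heat shock genes on average (0 by edgeR, where 3.49% of all genes tested were called, and 0 by DESeq2), with 1 of 9, Hspb1, at an unadjusted p below 0.05, where 15.8% of all genes tested were. Over all LF mice Hspb1 ran from 1.37 to 14.8 CPM with a median of 6.56 CPM (n = 15) and over all HF mice from 2.57 to 21.5 CPM with a median of 10.3 CPM (n = 15). The ranges overlapped, and the average difference of HF over LF was 0.71 (SE 0.24, adjusted p = 0.106 by edgeR). In fed WT mice Hspb1 was at 5.51, 3.68 and 3.54 CPM on LF and at 11.6, 17.2, 5.35 and 8.87 CPM on HF, with 1 HF mouse inside the LF range (1.31, SE 0.53, adjusted p = 0.811 by edgeR). Without KO HF fasted replicate 1, which had the lowest Hspb1 of the HF mice, the average difference was 0.82 and called (adjusted p = 0.0418 by edgeR). The 3 mice with skeletal muscle genes above 300 CPM were all on HF, and without them the value was 0.63 (adjusted p = 0.229 by edgeR).

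Within the 4 pairs of LF and HF groups 0 of 9 genes were called by edgeR in each, against 1.68% of all genes tested in KO fasted, 1.12% in WT fasted, 0.0778% in WT fed and 0.00865% in KO fed mice, and 0 by DESeq2, which gave no adjusted p for 1 gene in KO fasted and 3 genes in KO fed mice. At an unadjusted p below 0.05 there were 2 of 9 in WT fed mice, Hspb1 and Hsp90aa1 (all genes 5.22%), and 0 in WT fasted (12.3%), KO fed (7.26%) and KO fasted mice (13.1%). Hsp90aa1 was at 83.4, 67.6, 57.6 and 82.3 CPM in WT HF fed mice, all above the 40.3 to 53.2 CPM of the WT LF fed mice used, with a log2 fold change of 0.61 (SE 0.25, adjusted p = 0.811 by edgeR), and 8.33% of all genes tested were likewise without overlap. The mouse left out of WT LF fed had 67.2 CPM, inside the HF range. In WT fed mice all 9 log2 fold changes of diet were above 0, and this comparison uses the same 3 WT LF fed mice as the WT LF fasting comparison. All WT LF fed mice were on lane 8 and 3 of the 4 WT HF fed mice on lane 7, and with lane as a term Hsp90ab1 was at −0.07 and Hspb8 at −0.05. Hspb8 was at −0.02 without WT HF fed replicate 1.

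Genotype was called for none of the heat shock genes, neither on average nor in the 4 conditions (0 of 9 each by edgeR and 0 by DESeq2), and for 1 gene in all, Acadm, which is 0.00865% of those tested. At an unadjusted p below 0.05 there were 0 of 9 on average (all genes 2.9%), 1 in LF fed mice (Hsp90aa1, all genes 3.89%), 1 in LF fasted mice (Hsp90ab1, 5.91%), 1 in HF fasted mice (Hspb8, 2.49%) and 0 in HF fed mice (2.73%). The average differences of KO over WT lay between −0.04 for Hspb1 (SE 0.25) and 0.26 for Hspa1b (SE 0.29), all with an adjusted p of 1.0 by edgeR. Hspb8 was at 201.8, 246.8 and 279.5 CPM in KO HF fasted mice and at 102.7, 169.7, 158.8 and 156.7 CPM in WT HF fasted mice. These groups did not overlap, which held for 5.28% of all genes tested, and the log2 fold change of 0.72 (SE 0.33) had an adjusted p of 0.999 by edgeR. Hspa1b did not overlap between the same groups (22.9 ± 2.43 CPM in KO, SD, n = 3, and 13.0 ± 4.27 CPM in WT, SD, n = 4) and was not called either. In HF fed mice Hsp90aa1 was at 55.6, 50.6, 53.9 and 56.9 CPM in KO and at 83.4, 67.6, 57.6 and 82.3 CPM in WT. All KO mice were below all WT mice, as for 2.68% of all genes tested, and the log2 fold change of −0.42 was not called. In HF fed mice 0 of 9 log2 fold changes of KO over WT were above 0. This comparison uses the same WT HF fed mice as the diet comparison in WT fed mice. When single mice were left out, Hspa1b reached 0.29, Hspb1 0.2 and Hspb8 0.06.

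Of the interactions, 0 of 9 heat shock genes were called for fasting by diet, where 2.46% of all genes tested were called, and 0 of 9 for fasting by genotype and for diet by genotype, where 0.00% were. DESeq2 called 0 in each. At an unadjusted p below 0.05 there was 1 gene in each, Hsp90ab1 in fasting by diet (all genes 13.3%) and in fasting by genotype (4.95%) and Hsp90aa1 in diet by genotype (3.43%). The value of Hsp90aa1 was −0.54 (SE 0.24, adjusted p = 1.0 by edgeR).

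**Figure D5:**
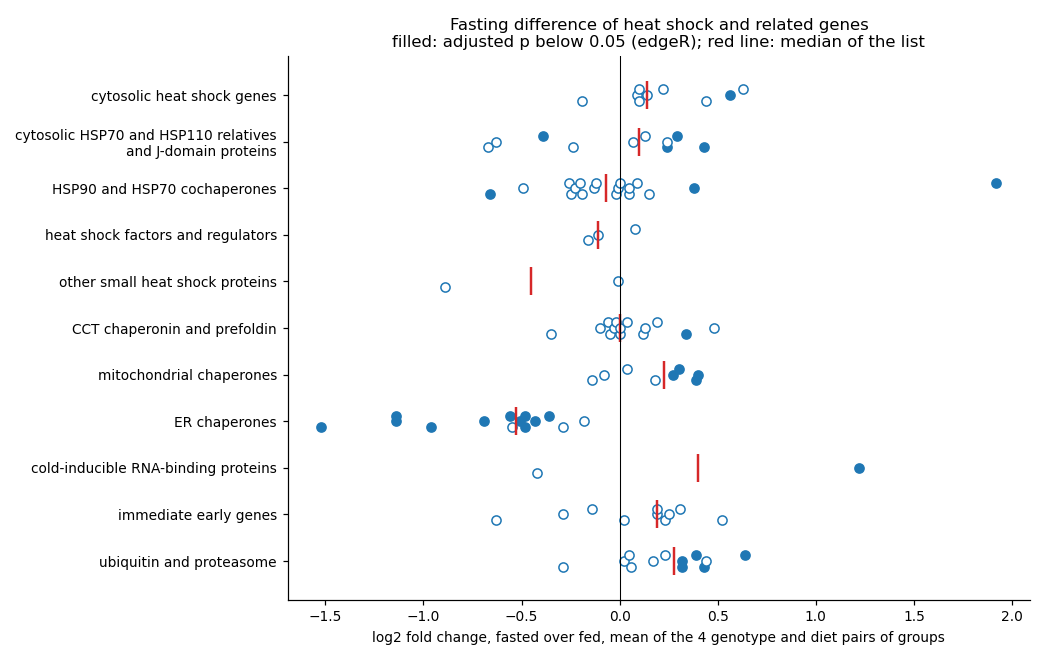
Log2 fold change of fasted over fed mice, averaged over the 4 pairs of groups (x axis), for each gene of the cytosolic heat shock genes and of the related lists (rows), filled where the adjusted p is below 0.05 by edgeR, with the median of each list as a red line. The cytosolic heat shock genes have 1 filled point, Hspa8, and the ER chaperones 11 filled points, all left of 0.

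Chaperone genes outside the 10 were counted in lists by place and role, for the average fasting difference, in which 9.77% of all genes tested were called higher and 9.14% lower. Of 10 tested relatives of HSP70 and HSP110 and J-domain proteins of the cytosol, 3 were higher (Dnajb4, 0.43, Dnajb6, 0.29, and Dnaja2, 0.24) and 1 lower (Dnajb2, −0.39). The call of Dnajb6 was lost in 14 of the 30 fits that each left out 1 mouse, and with lane as a term, no filter, total count scaling or the replicate block. The call of Dnaja2 was lost without KO LF fasted replicate 3 or WT LF fed replicate 3, and with all 32 mice, 31 mice, no filter or total count scaling. Of 18 cochaperones 2 were higher and 1 lower. Fkbp5, an immunophilin that restrains the glucocorticoid receptor bound to HSP90 and is itself induced by glucocorticoids, went from 12.4 ± 5.48 CPM in fed to 54.9 ± 41.4 CPM in fasted mice (SD, n = 15 each, log2 fold change 1.92, adjusted p = 1.08e-05 by edgeR). By pair of groups its log2 fold change was 3.13 in KO LF, 2.60 in WT LF, 1.5 in KO HF and 0.45 in WT HF mice, of which the LF values were called, and the fasting by diet interaction was −1.89 (adjusted p = 0.0690 by edgeR). Bag4, an HSP70 cochaperone, was also higher (0.38). Fkbp4, the immunophilin that promotes receptor transport, went from 159.3 ± 21.5 to 100.8 ± 26.8 CPM (SD, n = 15 each, −0.66, adjusted p = 2.74e-06 by edgeR). Bag3, a partner of HSPB8 and itself an HSF1 target, was at 42.8 ± 12.4 CPM in fed and 42.5 ± 11.3 CPM in fasted mice (SD, n = 15 each, adjusted p = 0.998 by edgeR).

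Of the 3 heat shock factors and regulators tested none was called (0 higher and 0 lower by edgeR). Hsf1 itself had a low level, 7.31 ± 2.21 CPM in fed and 6.72 ± 3.80 CPM in fasted mice (SD, n = 15 each), and Hsf2 had 29.3 ± 5.86 and 31.2 ± 9.02 CPM. The 2 other small heat shock genes that were tested were not called, and 1 of 14 genes of the CCT chaperonin and prefoldin was higher (Tcp1, 0.34).

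Chaperones of other compartments were counted in the same way. Of 14 ER chaperones 11 were lower after fasting on average and 0 higher, with a median of −0.53. By pair of groups 13 were called lower in KO LF, where 13.8% of all genes tested were called, and 6 in WT LF (7.54%). In KO HF (0.527%) and WT HF mice (0.424%) 0 were called lower by edgeR. The median log2 fold change of the list was −1.32 in KO LF, −0.72 in WT LF and −0.34 in WT HF mice. In KO HF mice it was 0.17, with 9 of the 14 above 0. Pdia6, a disulfide isomerase, went from 548.0 ± 108.3 to 257.9 ± 122.9 CPM (SD, n = 15 each, −1.14, adjusted p = 1.73e-09 by edgeR). Calr (−0.69), Hyou1 (−1.14) and Sdf2l1 (−1.52) were also lower, and for 6 of the 14 the fasting by diet interaction was called, where 2.46% of all genes tested were. Of 8 mitochondrial chaperones 4 were higher on average (Clpp, 0.39, Grpel1, 0.27, Dnaja3, 0.40, and Hspd1, 0.30). Their median was 0.42 in KO LF, 0.37 in WT LF, 0.08 in KO HF and 0.0 in WT HF mice. Of 12 ubiquitin and proteasome genes 5 were higher on average and 0 lower, among them Ubb (0.64), a polyubiquitin gene, Psmc1 (0.43), Sqstm1 (0.32) and Psmd1 (0.32). The median of this list was 0.51 in KO LF, 0.25 in WT LF, 0.1 in KO HF and 0.11 in WT HF mice. Whether these lists differ from the cytosolic heat shock genes was not tested.

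Cirbp, an RNA-binding protein induced by mild cold, rose from 16.6 ± 4.90 CPM in fed to 41.3 ± 17.0 CPM in fasted mice (SD, n = 15 each, 1.22, adjusted p = 1.73e-08 by edgeR). It was the only one of the 2 cold-inducible genes called, since Rbm3 had 4.70 ± 1.93 and 3.38 ± 1.61 CPM (SD, n = 15 each, −0.42, adjusted p = 0.311 by edgeR). Of 10 immediate early genes, which rise within minutes of handling or tissue damage, 0 were called (edgeR), and their summed level ran from 212.6 to 700.1 CPM in fed and from 194.2 to 654.8 CPM in fasted mice. By pair of groups the median log2 fold change of this list had both signs. It was −0.18 in KO LF, −0.69 in WT LF, 0.86 in KO HF and 0.27 in WT HF mice, with 0 genes called in each.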

How the data were processed

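According to the study's supplementary methods, 3′ libraries (QuantSeq) were sequenced as single reads of 50 bases, mapped and counted per gene. The submitters' processing notes name HISAT 0.1.5, SAMtools 1.2, HTSeq 0.6.1p1 and GRCm38. The deposited table holds raw counts of 32 mice as whole numbers. The counting strand was not given in the sources used here. Groups, replicate numbers, lanes and ages come from the labels, and positions and symbols from GENCODE vM21 on the same build. The 10 genes and all lists were chosen with earlier results of these data known.

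The test was edgeR 4.0.16 (filterByExpr, TMM, robust quasi-likelihood, 8 group means, 30 mice) with Benjamini-Hochberg adjustment over 11566 genes, and it was tested on simulated data. DESeq2 1.42.0, other scalings, filters, covariates and sets of mice were alternatives. Levels are CPM on TMM-scaled totals, and log2 CPM used a prior count of 2. Besides the 10 genes and Acadm, the text names up to 4 called genes per chaperone list with the smallest p for average fasting, always Hsf1, Hsf2, Bag3, Cirbp and Rbm3, and the 6 genes of highest likeness by either measure. Whether equal replicate numbers pair the mice was checked on residuals: over 98 same-numbered pairs the residual correlation had a median of 0.00022 (range −0.309 to 0.238), so no block was used. No 2 mice of a group agreed within sampling noise. Each mouse was counted as 1 sample, and p-values measure the spread between mice. Floors cover counting error only.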

Additional observations from a re-analysis of the deposited data

Results flagged for a closer look

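In 60 groups of 4 mice (10 heat shock genes in the 6 groups with 4 mice) 3 values lay farther from the others than the 95% limit of Dixon's test, and chance alone gives about 5% of groups. Hsp90ab1 in KO LF fasted replicate 1 was at 3757.9 CPM (8537 counts), with the 3 other mice between 1116.0 and 1185.9 CPM. Dnajb1 in the same mouse was at 62.9 CPM (143 counts), with the others between 23.0 and 27.5 CPM. Hsp90aa1 in WT LF fasted replicate 2 was at 102.1 CPM (255 counts), with the others between 63.2 and 65.2 CPM.

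KO HF fasted replicate 4, the library with heart genes that was left out of the main model, held 3 heat shock genes above all 30 mice used. Hspb1 was at 73.8 CPM (240 counts) where the highest other mouse had 21.5 CPM, Hspb8 at 455.4 CPM (1480 counts) where the highest had 383.8 CPM, and Hspa1a at 8.0 CPM (26 counts) where the highest had 4.52 CPM. Its hepatocyte genes summed to 834.8 CPM and its heart genes to 31696.0 CPM.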

How the results depend on the processing

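The average fasting difference of Hspa8 kept an adjusted p below 0.05 (edgeR, DESeq2 where named) with all 32 mice (0.52, adjusted p = 0.0223), with 31 mice, with DESeq2 (0.56, adjusted p = 0.00218), RLE or total count scaling, with no filter or a stricter filter, with lane or age as a term, and without mice with pancreas or muscle genes, and without each of the 30 mice in turn (0.49 to 0.63, adjusted p 0.0015 to 0.028). In the fits within single lanes, the feeding value of Hspa8 was not called in lane 7 (0.28, 0 genes called) or in lane 8 (0.69). In lane 8, 1 gene was called, Hspa1b (1.04, adjusted p = 0.0382 by edgeR).

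Number of heat shock genes called. For the fasting average it was 1, and 1 to 2 when single mice were left out. For diet on average it was 0, and 0 to 1. For fasting in WT LF mice it was 1 (Hspa8), and 0 to 1 when single mice were left out: the call was lost without WT LF fasted replicate 1 (adjusted p = 0.0607), 2 (0.143) or 4 (0.0695), WT LF fed replicate 1 (0.178), 3 (0.0809) or 4 (0.117), or KO HF fasted replicate 3 (0.0528), at log2 fold changes of 0.89 to 1.24 in these 7 by edgeR. It was 0 with all 32 mice, no filter, total count scaling, lane as a term, and without mice with pancreas genes, muscle genes or either, and 2 with the 2 groups alone (with Hsp90aa1). For fasting in KO LF mice it was 1 (Hsp90ab1), and 0 to 1 when single mice were left out: besides fasted replicate 1, the call was lost without KO LF fed replicate 1 (0.93, adjusted p = 0.0583), 2 (0.94, adjusted p = 0.0525), 3 (0.78, adjusted p = 0.105) or 4 (0.87, adjusted p = 0.0753 by edgeR). It was 0 with all 32 mice, no filter, total count scaling, age as a term and the 2 groups alone. The calls in WT LF and KO LF mice therefore stood near the threshold, and the cause of their loss was not tested. Total count scaling moved the median of all genes by −0.18 in KO LF and −0.10 in WT LF mice, to which the changes of Hsp90ab1 (0.68, adjusted p = 0.101) and Hspa8 (1.01, adjusted p = 0.0508 by edgeR) are to be read.

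With the replicate number as a block, 2 genes were called for the fasting average, Hspa8 (0.57, adjusted p = 0.00555) and Hspa1b (0.72, adjusted p = 0.0255 by edgeR); the numbers did not pair the mice. Of the average fasting calls in the related lists besides Dnajb6 and Dnaja2, those of Dnajb4, Tcp1, Grpel1, Dnaja3, Hspd1 and Psmd1 were lost with total count scaling, those of Bag4, Grpel1, Hspd1 and Sqstm1 with all 32 mice, that of Sqstm1 with 31 mice, and that of Dnajb4 without mice with muscle genes; of the genes named, within lane 7 only Fkbp4, Pdia6, Calr, Hyou1 and Cirbp were called. No called value changed its sign under any alternative run. The thresholds on pancreas and muscle genes were chosen after the data had been seen. Low counts limit Hspa1a (at most 13) and Hspb1 (4 to 56).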
